A study of Mus musculus with 4 samples.

Results

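The 9 genes described here encode surface proteins by which mesenchymal stromal cells and adipose progenitors are recognised and sorted, namely Thy1, Ly6a, Cd34, Eng, Nt5e, Cd44, Vcam1, Alcam and Cd9. They were taken by symbol from a table of 16051 genes, and each symbol occurred once. The set was selected on its FPKM and read counts in these same libraries, so their differences between the treatments are given as a description, with fold changes from the fit across all genes and without its p-values or calls. The cells were of the 3T3-L1 line, preadipocytes of NIH SWISS mouse embryo origin that can be driven to store lipid in culture. Per the study's methods, differentiated 3T3-L1 cells received 100 μM risperidone, an atypical antipsychotic drug, for 48 h, and the control cells received its vehicle, DMSO. In the labels these controls are untreated, and the name DMSO is used here. Each treatment had 2 libraries, with the RNA of 3 cultures combined in each, and how far single cultures differ was not measured. The whole set is from 1 cell line at 1 dose and 1 time.

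Mesenchymal progenitors have no single defining antigen, and they are sorted by combinations of surface proteins. Thy1, Ly6a and Nt5e are held to the outer membrane by a glycolipid (GPI) anchor, whereas the other members cross the membrane. Endoglin is a co-receptor for TGF-β and BMP ligands, Cd44 binds hyaluronan, Vcam1 and Alcam are immunoglobulin-type adhesion molecules, Cd9 is a tetraspanin that organises other membrane proteins, and Cd34 is a sialomucin also known from blood progenitors and endothelium. In adipose tissue several of them serve to sort the stromal precursors away from blood and endothelial cells.

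Coding sequences of Thy1, Ly6a and Ly6c1 are shown first, because Thy1 was higher in both risperidone libraries on each scale and because part of the Ly6a sequence is shared with its neighbours in the Ly6 family. They were read from the principal GENCODE transcripts, with coding lengths of 489, 405 and 396 bases. For Thy1 the first 140 coding bases are given, with the start codon in capitals. For Ly6a and Ly6c1 the first and the last 140 are given, with capitals for aligned runs of at least 12 bases that are the same in both genes.
Thy1, start: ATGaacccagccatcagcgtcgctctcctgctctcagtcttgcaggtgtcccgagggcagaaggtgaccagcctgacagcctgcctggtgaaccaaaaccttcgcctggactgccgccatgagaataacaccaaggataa
Ly6a, start: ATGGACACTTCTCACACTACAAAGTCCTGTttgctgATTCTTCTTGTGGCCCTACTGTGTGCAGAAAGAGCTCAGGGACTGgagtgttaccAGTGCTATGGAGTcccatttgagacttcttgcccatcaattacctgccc
Ly6c1, start: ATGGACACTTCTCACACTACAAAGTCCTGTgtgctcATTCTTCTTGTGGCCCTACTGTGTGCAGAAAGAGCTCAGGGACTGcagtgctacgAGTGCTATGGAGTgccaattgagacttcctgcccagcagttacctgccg
Ly6a, end: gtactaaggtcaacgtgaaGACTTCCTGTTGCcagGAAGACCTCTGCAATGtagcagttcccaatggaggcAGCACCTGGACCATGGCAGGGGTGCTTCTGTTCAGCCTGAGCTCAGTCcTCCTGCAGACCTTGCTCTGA
Ly6c1, end: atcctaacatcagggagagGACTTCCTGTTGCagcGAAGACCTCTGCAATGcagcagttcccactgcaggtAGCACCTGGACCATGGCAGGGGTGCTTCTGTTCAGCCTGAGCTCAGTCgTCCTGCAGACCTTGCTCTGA
Ly6a and Ly6c1 had the same base at 332 of 405 aligned positions (82.0%), and the longest shared run was 48 bases. Ly6i, Ly6f and Ly6g were closer to Ly6a over the coding sequence (86.4%, 84.4% and 83.2%), and Ly6i shared a run of 80 bases. Over the annotated Ly6a transcripts, 246 of 1297 different stretches of 50 bases (19.0%) also occurred in a transcript of another gene. Occurrences, summed over all transcripts of the other gene, were most frequent for Ly6c1 (242). They grow with the number of its transcripts and are not a part of the 246. Reads from these stretches can be divided between the Ly6 genes by the counting tool, so Ly6a values carry this uncertainty. For Cd9 the share was 5.67%, for Cd34, Nt5e, Vcam1 and Alcam it was below 0.5%, and for Thy1, Eng and Cd44 it was 0.

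The table of RefSeq promoter windows used here (250 bases before the start to 50 bases after it, GRCm38.p6) had entries for 6 of the 9 members, not for Thy1, Ly6a and Vcam1. The windows of Cd9, the member with the highest level, and of Nt5e and Cd34, the members with the lowest, are given with each CG dinucleotide in capitals.
Cd9, chr6:125494711-125495010, minus strand: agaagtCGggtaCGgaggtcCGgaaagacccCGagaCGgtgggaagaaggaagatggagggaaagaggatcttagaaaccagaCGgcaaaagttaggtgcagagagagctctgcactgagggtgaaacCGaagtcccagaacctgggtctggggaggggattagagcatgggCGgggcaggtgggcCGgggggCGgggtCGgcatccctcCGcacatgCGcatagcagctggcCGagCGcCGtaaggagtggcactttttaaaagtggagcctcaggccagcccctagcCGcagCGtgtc
Nt5e, chr9:88327359-88327658, plus strand: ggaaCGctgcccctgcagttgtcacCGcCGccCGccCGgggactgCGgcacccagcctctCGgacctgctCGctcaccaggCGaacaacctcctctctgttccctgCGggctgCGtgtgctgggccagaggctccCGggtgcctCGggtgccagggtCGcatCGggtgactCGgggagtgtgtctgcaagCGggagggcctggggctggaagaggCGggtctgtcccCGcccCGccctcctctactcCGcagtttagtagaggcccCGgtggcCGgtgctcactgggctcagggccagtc
Cd34, chr1:194938571-194938870, plus strand: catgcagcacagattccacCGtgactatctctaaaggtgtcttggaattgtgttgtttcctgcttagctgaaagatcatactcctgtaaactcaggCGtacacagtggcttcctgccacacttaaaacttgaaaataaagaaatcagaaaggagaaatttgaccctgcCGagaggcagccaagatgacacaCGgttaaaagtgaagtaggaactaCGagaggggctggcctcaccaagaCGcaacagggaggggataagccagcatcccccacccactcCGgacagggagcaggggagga
The Cd9 window held 18 CG dinucleotides, and 29.7% of the 32851 windows of this length held at least as many. The Nt5e window held 23 (21.5% of windows) and the Cd34 window held 7 (52.1%), which is the median over the windows. The 3 windows did not fall in the order of the transcript levels, since the CG count was higher in front of Nt5e than in front of Cd9. CG dinucleotides lie on both strands, and the letters say nothing of methylation.

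The libraries had similar depth, between 15883712 and 16374119 counts, and 10243 genes were fitted, those whose mean FPKM (fragments per kilobase of transcript, scaled to library size) reached 1. Of these, edgeR's quasi-likelihood test called 3287 (32.1%) higher and 3303 (32.2%) lower with risperidone at an adjusted p under 0.05, or 64.3% in all. The cells are labelled as adipocytes, but 8 of 12 adipocyte markers were below 1 FPKM in every library, including the adipokines Adipoq (0.06, 0, 0.06 and 0.06 FPKM for DMSO 1 and 2 and risperidone 1 and 2), Lep and Cfd, the lipid droplet genes Plin1 and Cidec, and the insulin-regulated glucose transporter Slc2a4. The summed adipocyte list lay between 265.62 and 432.15 FPKM and came mostly from Lpl and from Fabp4, the latter at 130.09 and 168.66 FPKM with DMSO and 59.51 and 71.18 FPKM with risperidone. Pparg and Cd36 also reached 1 FPKM in every library. Pparg was at 12.51 and 11.41 FPKM with DMSO and 12.78 and 12.47 FPKM with risperidone. Cd36 was at 1.21 and 1.14 FPKM against 1.04 and 1.66 FPKM. The 12 fibroblast markers summed to between 2279 and 2462 FPKM, led by Col1a2 and Fn1, with single genes of the list moving in opposite directions within that sum. The labels also mention retina in the extraction text, and none of the 7 listed retina markers reached 1 FPKM. Risperidone replicate 2 stood apart: its 15 kidney epithelium markers summed to 229 FPKM against 2.07 to 3.51 in the other libraries, and 12 of 15 reached 1 FPKM in it against 1 in each of the others. The highest were Kap, at 136.19 FPKM against at most 2.07, and Fxyd2. Where member values, list counts or list medians moved with this library, values without it are therefore also given.

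Of the 9 members, 7 passed the minimum of 1 FPKM, and Cd34 and Nt5e did not. Thy1 was higher with risperidone by a log2 fold change of 1.05 ± 0.0546 (SE, 2 libraries per treatment) and Vcam1 was lower, by −0.79 ± 0.0527. Cd9, at the highest level of the set, was slightly higher, and Cd44, Alcam and Eng differed little. Ly6a was higher mainly through risperidone replicate 2. Their median log2 fold change, which is the value of Eng, was 0.25, and that of all fitted genes was 0.00. The members' median was 0.15 without risperidone replicate 2, where that of all genes was −0.01. It was 0.082 with limma on log2(FPKM + 1) and −0.0019 with TPM, where the medians of all genes were −0.08 and −0.22, so TPM and FPKM values given below are to be read against these shifts. In RNA from whole cultures, fewer cells with a transcript and less of it per cell cannot be told apart.

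**Figure D1:**
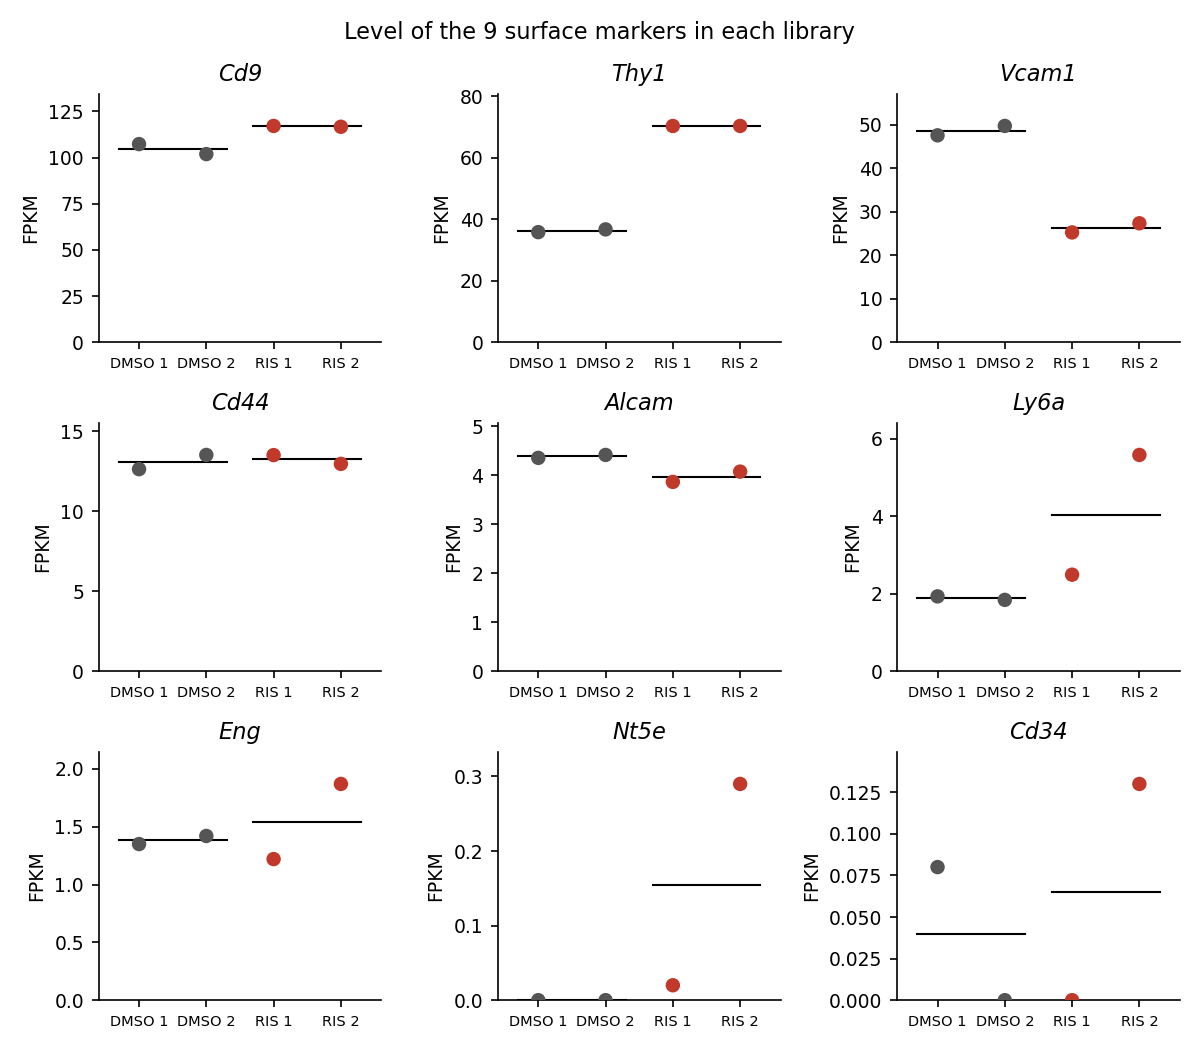
FPKM (y axis, from 0, with its own scale in each panel) of the 9 surface markers in the DMSO (grey) and risperidone (red) libraries, with points for libraries and bars for the mean of each pair. Thy1 stood at 35.81 and 36.71 FPKM with DMSO and at 70.36 and 70.38 FPKM with risperidone, while Vcam1 stood at 47.53 and 49.69 FPKM and at 25.22 and 27.32 FPKM.

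Among the GPI-anchored members, Thy1 (Gene ID 21838, chr9:44043384-44048579, plus strand), a small immunoglobulin-type glycoprotein of fibroblasts, neurons and thymocytes, had 35.81 and 36.71 FPKM in the DMSO libraries and 70.36 and 70.38 FPKM in the risperidone libraries. These rested on 938 and 934 counts against 1834 and 1809 counts. Both risperidone libraries lay above both DMSO libraries, and the pairs stood within 1.03-fold of each other. The means were 36.3 ± 0.636 and 70.4 ± 0.0141 FPKM (SD, n = 2). On the TPM scale, on which each library sums to the same total, the means were 74.8 ± 0.827 and 131 ± 3.61 TPM (SD, n = 2), and the log2 fold change was 0.81. Leaving out each library in turn gave 1.04 to 1.07 in edgeR, so risperidone replicate 2 did not decide the value.

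Ly6a (110454, chr15:74994877-74998031, minus strand), which encodes the stem cell antigen Sca-1 of mouse progenitors, was low. It had 1.93 and 1.84 FPKM with DMSO and 2.49 and 5.58 FPKM with risperidone, from 26, 24, 34 and 74 counts. The risperidone libraries both lay above the DMSO libraries but differed 2.22-fold from each other after scaling. The exact Poisson 95% intervals, which cover counting error only, were 17.0 to 38.1 and 15.4 to 35.7 counts for DMSO, 23.5 to 47.5 for risperidone replicate 1 and 58.1 to 92.9 for replicate 2. Risperidone replicate 1 thus overlapped both DMSO libraries in counting error, and replicate 2 did not. The log2 fold change was 1.20 ± 0.357 with all libraries, 0.53 without risperidone replicate 2 and 1.66 without replicate 1. Risperidone replicate 2 was the library with the kidney transcripts, and their part in the Ly6a value was not tested.

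Nt5e (23959, chr9:88327609-88372089, plus strand), the ectonucleotidase CD73 that makes adenosine from extracellular AMP, had 0 counts in both DMSO libraries, 1 in risperidone replicate 1 and 16 in replicate 2. A count of 0 allows up to 3 counts as a one-sided limit, or 0.183 to 0.189 CPM at these depths, whereas the two-sided Poisson interval of a count of 0 reaches 3.69. The corresponding values were 0, 0, 0.02 and 0.29 FPKM. Only risperidone replicate 2 lay above that limit, with a Poisson 95% interval of 9.15 to 25.98 counts, and without it Nt5e was not detectable at this depth in either treatment. No fold change is given.

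**Figure D2:**
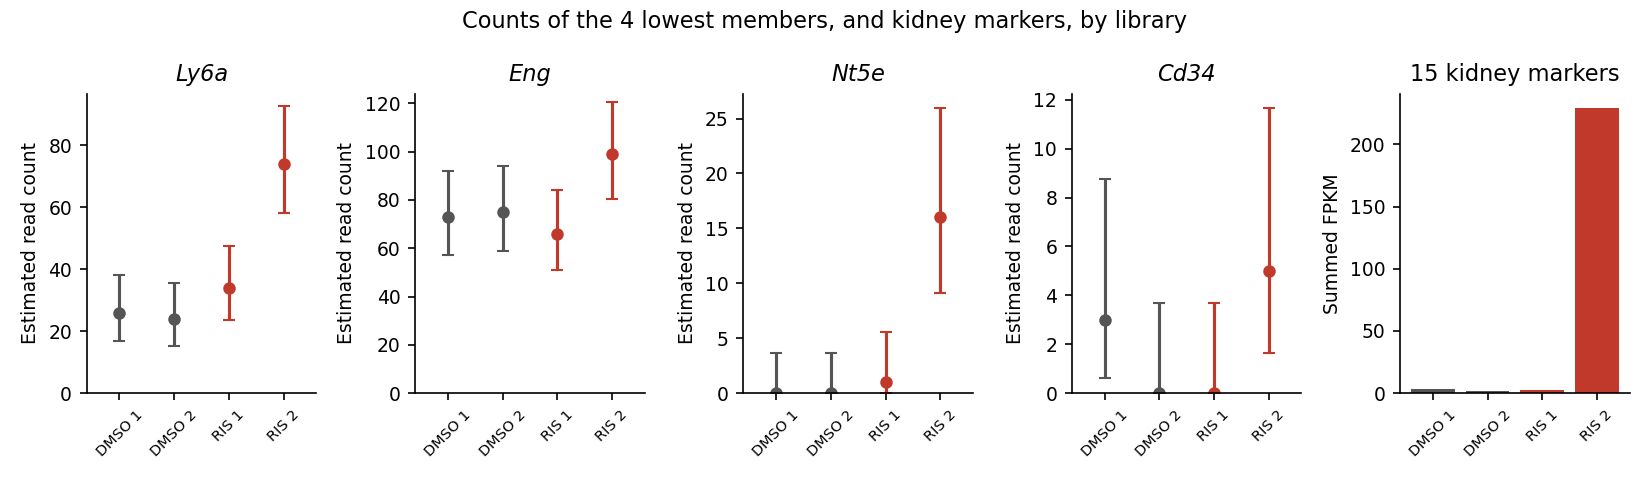
Estimated read counts (y axis, from 0) of the 4 members with the fewest reads, with exact Poisson 95% intervals as bars, and in the last panel the summed FPKM of 15 kidney markers, for the DMSO (grey) and risperidone (red) libraries. Risperidone replicate 2 had the highest value in every panel, with 74, 99, 16 and 5 counts for Ly6a, Eng, Nt5e and Cd34 and 229 FPKM for the kidney markers.

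Vcam1 (22329, chr3:116110020-116129688, minus strand), the adhesion molecule that α4 integrins bind, was lower with risperidone. The DMSO libraries had 47.53 and 49.69 FPKM (2539 and 2577 counts) and the risperidone libraries 25.22 and 27.32 FPKM (1340 and 1428 counts). Both risperidone libraries lay below both DMSO libraries. The means were 48.6 ± 1.53 and 26.3 ± 1.48 FPKM (SD, n = 2), and leaving out each library gave log2 fold changes between −0.84 and −0.74. With TPM the value was −1.02.

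Alcam (11658, chr16:52248996-52453081, minus strand), a partner of CD6 and of itself, had 4.35 and 4.41 FPKM with DMSO and 3.86 and 4.07 FPKM with risperidone, from 343, 338, 303 and 314 counts. Although these FPKM values did not overlap, the log2 fold change after TMM scaling was −0.05 ± 0.0832, and it was 0.05 with an offset for gene length, −0.14 with library size only and −0.26 with TPM, where the medians of all genes were 0.03, −0.09 and −0.22. Of the fitted members, 3 were higher without overlap in FPKM (Thy1, Ly6a and Cd9), 2 were lower (Vcam1 and Alcam) and 2 overlapped (Cd44 and Eng), where 32.4% of all fitted genes were higher and 49.8% lower without overlap, or 82.2% in all. The rule for the members used these values too, so nothing is read from the counts.

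Cd9 (12527, chr6:125460266-125494760, minus strand), a tetraspanin of exosomes and of the fusion machinery, was at the highest level, in position 642 of 16051 by mean FPKM. The values were 107.27 and 101.85 FPKM with DMSO and 117.1 and 116.65 FPKM with risperidone, from 1856, 1713, 2018 and 1986 counts. Both risperidone libraries lay above both DMSO libraries, which differed more from each other than the risperidone libraries did. The log2 fold change was 0.26 ± 0.0488, and 0.22 to 0.30 with each library left out. It was 0.18 with an offset for gene length and 0.02 with TPM.

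Cd44 (12505, chr2:102811141-102901669, minus strand), the hyaluronan receptor, had 12.64 and 13.53 FPKM with DMSO and 13.52 and 12.97 FPKM with risperidone, from 886, 921, 941 and 890 counts. The risperidone libraries lay within the range of the DMSO libraries, and the means were 13.1 ± 0.629 and 13.2 ± 0.389 FPKM (SD, n = 2). The log2 fold change of 0.11 ± 0.0670 went to 0.21 with an offset for gene length and to −0.12 with TPM. The TPM value lay above the median of all genes on that scale (−0.22), and with edgeR the value stayed above 0 under each scaling tried.

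Eng (13805, chr2:32646595-32682669, plus strand), the co-receptor endoglin (CD105), had 1.35 and 1.42 FPKM with DMSO and 1.22 and 1.87 FPKM with risperidone, from 73, 75, 66 and 99 counts. Risperidone replicate 1 was the lowest of the libraries and replicate 2 the highest, 1.53-fold apart after scaling. The log2 fold change was 0.25 ± 0.220 with all libraries, −0.08 without risperidone replicate 2 and 0.52 without replicate 1, and it was −0.00 with TPM. An exon of Fpgs overlaps Eng on the opposite strand, as exons of predicted genes overlap Cd34, Vcam1 and Cd9. Whether the counting used strand is not given in the sources used here, so reads from such partners cannot be told apart.

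Cd34 (12490, chr1:194938821-194961292, plus strand), the sialomucin, had 3 and 0 counts with DMSO and 0 and 5 counts with risperidone, which is 0.08, 0, 0 and 0.13 FPKM. Each treatment had 1 library at 0 and 1 above it, and only risperidone replicate 2 exceeded the limit of 3 counts. No difference was detectable at this depth. The pan-leukocyte gene Ptprc was likewise at 0, 0, 0.01 and 0.04 FPKM, and the 9 endothelial markers in the table summed to 0.25, 0.37, 0.22 and 0.83 FPKM, led by Pecam1 and Egfl7. The blood cell list summed to 18.08, 20.83, 13.28 and 19.33 FPKM and came mostly from Cd14 (12.65 and 14.18 FPKM with DMSO, 9.97 and 9.67 FPKM with risperidone), followed by Cd74. In risperidone replicate 2, 4 genes of this list reached 1 FPKM, against 2 in each of the others. Hba-a1 (0, 0, 0 and 1.97 FPKM) and H2-Aa (0, 0.07, 0 and 1 FPKM) did so only there. Whether the Cd34 counts of this library share their origin was not tested.

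**Figure D3:**
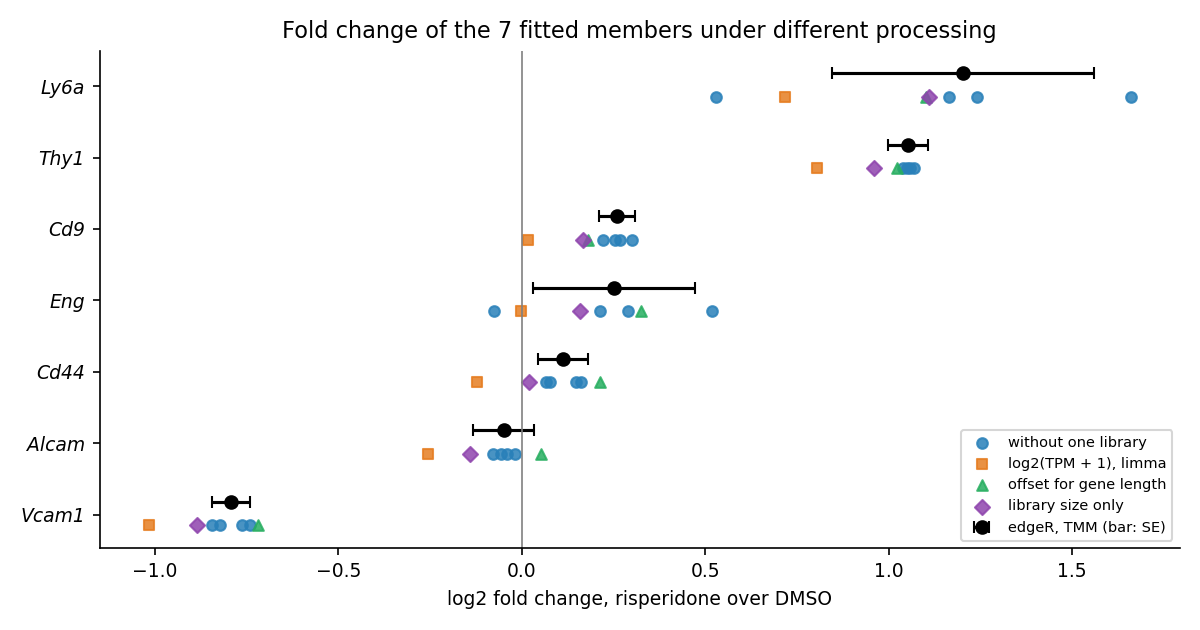
Log2 fold change (x axis, risperidone over DMSO) of the 7 fitted members (y axis) in edgeR with TMM scaling (black, bars are SE), without 1 library (blue), with limma on log2(TPM + 1) (orange), with an offset for gene length (green) and with library size only (purple). Thy1, Ly6a, Cd9 and Vcam1 stayed on 1 side of 0 in the fits drawn, Cd44, Alcam and Eng crossed 0, Cd44 only with TPM, where the median of all genes was −0.22, and Ly6a ranged from 0.53 to 1.66.

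Levels between genes were compared on the FPKM scale, which divides by gene length. With DMSO the order was Cd9, Vcam1, Thy1, Cd44, Alcam, Ly6a, Eng, Cd34 and Nt5e, and only the last pair overlapped between libraries. With risperidone Thy1 stood above Vcam1, and Ly6a and Alcam, like Nt5e and Cd34, could not be ordered because their libraries overlapped. Within a library the ratio of Thy1 to Vcam1 FPKM was 0.753 and 0.739 with DMSO and 2.79 and 2.58 with risperidone. This ratio does not depend on how libraries are scaled to each other. The Thy1 to Cd9 ratio was 0.334 and 0.360 against 0.601 and 0.603, and the Vcam1 to Cd9 ratio 0.443 and 0.488 against 0.215 and 0.234. The 9 members summed to 210.96 and 209.45 FPKM with DMSO and 234 and 239 FPKM with risperidone. Thy1 made up 17.0% and 17.5% of that sum with DMSO and 30.1% and 29.4% with risperidone, and Vcam1 22.5% and 23.7% against 10.8% and 11.4%. The share of Cd9 was 50.8%, 48.6%, 50.1% and 48.8%.

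For each fitted member, the gene with the nearest pattern over the 4 libraries was found by Euclidean distance on log2(FPKM + 1), which takes in level and difference together. Mapk8ip3 lay nearest to Thy1 (distance 0.147), with 33.8 and 33.9 FPKM against 72.32 and 68.7 FPKM. Chtf8 lay nearest to Vcam1 (0.0655), Clstn1 to Cd9 (0.0550), 1110038F14Rik to Cd44 (0.0315) and Dusp19 to Alcam (0.0725). Klra2 lay nearest to Eng (0.152), and Hgd lay nearest to Ly6a (0.410). Hgd had 1.36 and 1.88 FPKM with DMSO and 2.89 and 4.67 FPKM with risperidone, and like Ly6a was highest in risperidone replicate 2. With 4 libraries, such matches describe these samples only.

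The genes that work with the members were taken from 10 lists written from general knowledge, which hold 179 entries, 161 of them in the table and 105 fitted. Of these, 41 rose and 36 fell with risperidone, which is 73.3% called (edgeR, adjusted over all 10243). Of all fitted genes 32.1% were higher and 32.2% lower, or 64.3% in all. Without risperidone replicate 2 the counts were 41 and 37, where 32.3% of all fitted genes were higher and 32.7% lower, or 65% in all. With TPM, where the median of all genes shifted by −0.22, they were 22 and 51, where 15% of all fitted genes were higher and 51.7% lower, or 66.7% in all. The counts of single lists given below stand beside these shares of the same fits.

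**Figure D4:**
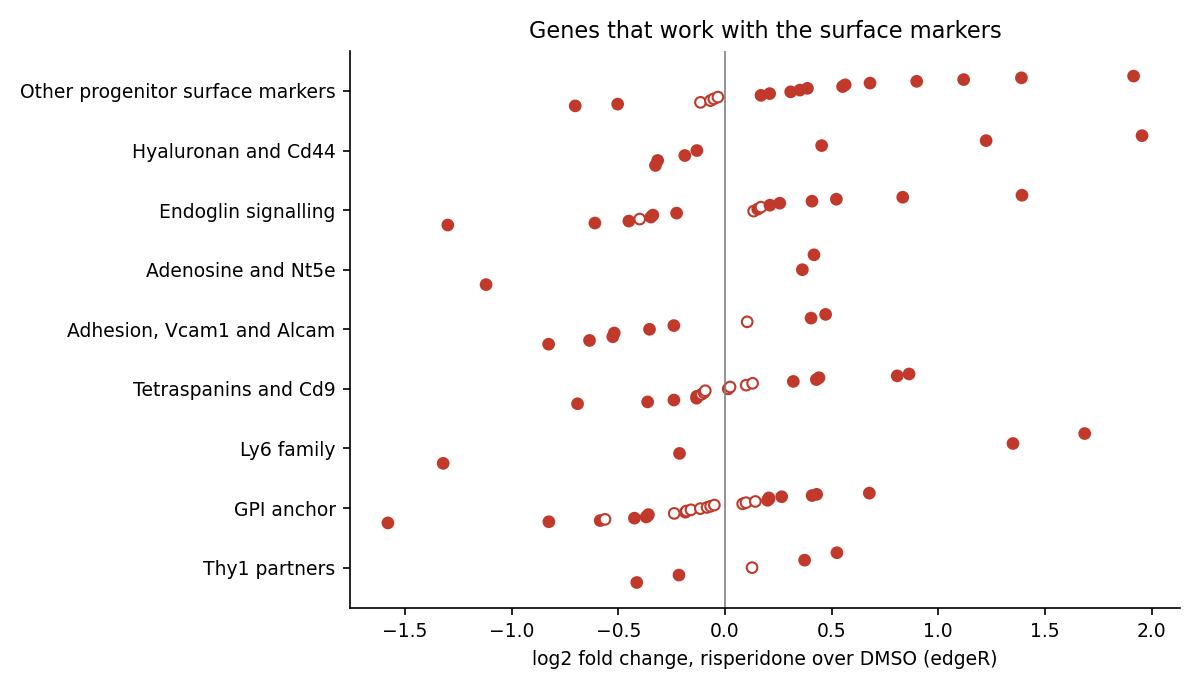
Log2 fold change (x axis, risperidone over DMSO, edgeR) of each fitted gene in the lists of genes that work with the surface markers (y axis), with filled points for an adjusted p under 0.05 and open points for the others. Among the other progenitor surface markers 12 of 18 lay to the right of 0 and were filled, and among the adhesion genes 6 of 9 lay to the left and were filled. Of all fitted genes 32.1% were called higher and 32.2% lower. With TPM 7 of the progenitor markers were higher and 5 lower, where 15% and 51.7% of all fitted genes were.

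Of the other surface proteins used to mark mesenchymal or adipose progenitors, 18 of 30 were fitted, 12 rose, 2 fell and 4 did not pass the test, with a median log2 fold change of 0.33. F3 (CD142, tissue factor, the starter of coagulation, also carried by a subset of adipose stromal cells) rose from 36.7 ± 1.76 to 130 ± 0.764 FPKM (SD, n = 2; log2 fold change 1.92 ± 0.0511 (SE), adjusted p = 2.84e-09). Cd109, a GPI-anchored TGF-β co-receptor, rose from 3.23 to 7.93 FPKM (1.39 ± 0.0770, adjusted p = 1.34e-07), and Cd24a, a small GPI-anchored sialoglycoprotein, from 6.66 to 13.5 FPKM (1.12 ± 0.0991, adjusted p = 3.23e-06). With TPM the counts on this list were 7 higher and 5 lower, and without risperidone replicate 2 they were 12 and 3. The smooth muscle marker Acta2 was also higher with risperidone (110.94 and 104.48 against 228.78 and 228.6 FPKM), and the muscle list, in which the other 5 of 6 genes, led by Des, were under 1 FPKM in every library, summed to 112, 105, 230 and 230 FPKM. In the fibroblast list, the preadipocyte gene Dlk1 was at 30.38 and 32.85 FPKM with DMSO and at 81.7 and 83.28 FPKM with risperidone. The progenitor genes Pi16, Zfp423 and Ebf2 were below the minimum for a fit. For DMSO 1 and 2 and risperidone 1 and 2, Pi16 had 13, 18, 6 and 9 counts. Zfp423 had 27, 18, 18 and 11 counts, and Ebf2 had 13, 9, 7 and 7. At such low counts no direction is given for them. Its collagen genes moved both ways, with log2 fold changes of 0.99 for Col1a1 and −0.96 for Col3a1. The part of these genes in the progenitor list was not tested.

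Around Cd44, 7 of 12 genes for hyaluronan synthesis, breakdown and binding and for the link to the cytoskeleton were fitted, and 3 rose and 4 fell. Ezr, the linker ezrin that ties the Cd44 tail to actin, rose from 25.97 ± 1.63 to 56.8 ± 1.09 FPKM (SD, n = 2; log2 fold change 1.22 ± 0.0550 (SE), adjusted p = 4.05e-08). Hyal1, a hyaluronidase, had 0.440 FPKM with DMSO and 1.61 FPKM with risperidone, and is 1 of the 3 counted. It reached the minimum for the fit only through the risperidone libraries, so its difference is given without its p. Spp1, the Cd44 ligand osteopontin, rose from 25.5 to 32.5 FPKM (0.45 ± 0.0988, adjusted p = 0.00203). Spp1 rested partly on the library with the kidney transcripts, with 28.36 and 36.68 FPKM in risperidone replicates 1 and 2, and its value was 0.27 without replicate 2 and 0.62 without replicate 1. Its call was lost with TPM. The 4 that fell did so by at most 0.33 on the log2 scale. With an offset for gene length 2 genes of the list were called lower. Of all fitted genes 3065 were then called lower, in place of 3303. The list median was −0.13, and −0.14 without DMSO replicate 1.

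Among the receptors, ligands and effectors of endoglin signalling, 16 of 19 were fitted, 7 rose, 6 fell and 3 did not pass, with a median of 0.14. The Id genes, targets of the BMP branch, moved apart: Id1 fell from 36.9 ± 3.30 to 13.9 ± 2.21 FPKM (SD, n = 2; log2 fold change −1.30 ± 0.114 (SE), adjusted p = 3.01e-06), whereas Id2 rose from 7.33 to 17.97 FPKM (1.39 ± 0.113, adjusted p = 1.69e-06) and Id3 from 14.4 to 24.0 FPKM (0.83 ± 0.125, adjusted p = 0.000159). With TPM 3 genes of this list were higher and 6 lower, with a median of −0.09. Without risperidone replicate 1 the median was 0.05, and without replicate 2 the counts were 7 and 7. For adenosine, the product of Nt5e, 3 of 14 genes were fitted. Pnp, which splits inosine and may share reads with its paralog Pnp2, fell from 80.2 to 34.5 FPKM (−1.12 ± 0.0468, adjusted p = 2.59e-08), while Adk, the adenosine kinase, rose from 28.4 to 35.2 FPKM (0.42 ± 0.0725, adjusted p = 0.000445) and the nucleoside carrier Slc29a1 from 20.3 to 24.5 FPKM (0.36 ± 0.0662, adjusted p = 0.000625), the latter not called with TPM.

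Of the immunoglobulin-type and other adhesion genes listed with Vcam1 and Alcam, with their counter-receptors and sheddases, 9 of 20 were fitted, 2 rose and 6 fell, and the median was −0.35. Cdh2, the N-cadherin of mesenchymal cells, fell from 50.6 ± 2.04 to 26.7 ± 1.54 FPKM (SD, n = 2; log2 fold change −0.83 ± 0.0536 (SE), adjusted p = 3.50e-07). The junction protein Jam3 fell from 18.2 to 10.97 FPKM (−0.64 ± 0.0759, adjusted p = 2.92e-05) and the neural adhesion molecule Ncam1 from 41.7 to 26.4 FPKM (−0.53 ± 0.0520, adjusted p = 7.55e-06). With each library left out in turn, the list median lay between −0.39 (without risperidone replicate 2) and −0.32 (without risperidone replicate 1).

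Of the other tetraspanins and Cd9 partners, 17 of 25 were fitted, 5 rose, 5 fell and 7 did not pass, with a median of 0.02. Hbegf, a growth factor precursor that Cd9 binds, rose from 4.62 to 7.86 FPKM (log2 fold change 0.86 ± 0.123 (SE), adjusted p = 0.000107), and so did the Cd9 partner Igsf8, from 22.1 to 36.2 FPKM (0.81 ± 0.0673, adjusted p = 2.11e-06). Tspan12, a tetraspanin of Norrin signalling, fell from 11.7 to 6.74 FPKM (−0.69 ± 0.0814, adjusted p = 2.64e-05). With TPM 2 genes of this list were higher and 10 lower. With DESeq2 3 were higher and 2 lower, where 2639 and 2653 of all 10243 fitted genes were. The list median was 0.03 without risperidone replicate 2 and −0.01 without risperidone replicate 1. It was 0.008 without DMSO replicate 1 and 0.009 without DMSO replicate 2. None of the 5 other sialomucins in the table reached the minimum for a fit, so Cd34 had no comparison within its family.

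Of the other Ly6 and uPAR family genes, 4 of 17 were fitted, and 2 rose and 2 fell. Ly6c1, whose transcripts together held the most occurrences of 50-base stretches of Ly6a, had 1.43 and 2 FPKM with DMSO and 4.04 and 4.23 FPKM with risperidone, from 17, 23, 47 and 49 counts (log2 fold change 1.35 ± 0.276 (SE), adjusted p = 0.00135). Unlike Ly6a, its risperidone libraries lay close together. Plaur, the urokinase receptor, had 0.610 FPKM with DMSO and 1.83 FPKM with risperidone. It is 1 of the 2 counted as higher, reached the minimum for the fit only through the risperidone libraries, and is given without its p. The complement inhibitor Cd59a fell from 9.19 to 3.43 FPKM (−1.32 ± 0.146, adjusted p = 1.67e-05).

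The anchor that holds Thy1, Ly6a and Nt5e to the membrane is made by a chain of enzymes, of which 26 of 28 were fitted, with 6 higher, 8 lower and 12 not called (53.8% called, median −0.10). Pigh, a subunit of the enzyme of the first step, fell from 4.77 ± 0.113 to 1.48 ± 0.0919 FPKM (SD, n = 2; log2 fold change −1.58 ± 0.163 (SE), adjusted p = 1.00e-05), and Pigp, of the same complex, from 56.6 to 29.9 FPKM (−0.83 ± 0.0628, adjusted p = 1.10e-06). Dpm1, which makes the mannose donor, rose from 21.4 to 32.1 FPKM (0.68 ± 0.0637, adjusted p = 5.14e-06). With TPM 3 were higher and 15 lower, and without risperidone replicate 2 the counts were 7 and 9. Of the proteins that bind Thy1 or relay its signal, 5 of 8 were fitted, of which 2 rose and 2 fell. The integrin subunit Itgb5 rose from 35.4 to 47.7 FPKM (0.52 ± 0.0489, adjusted p = 4.79e-06) and the kinase Fyn from 12.7 to 15.7 FPKM (0.37 ± 0.0675, adjusted p = 0.000590), while the proteoglycan Sdc4 fell from 55.4 to 38.9 FPKM (−0.41 ± 0.0490, adjusted p = 2.74e-05). The call for Fyn was lost with TPM.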

How the data were processed

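Messenger RNA of 3T3-L1 cells was sequenced in 2 DMSO and 2 risperidone libraries. The authors deposited 1 table with an estimated read count (expected counts, not normalised), an FPKM and a TPM for each gene and library. The submitters' processing notes list Bowtie2, RSEM, DESeq2 and GRCm38.p6, without versions or roles. The FPKM values deposited by the authors are scaled by gene length and library total, and the TPM values deposited by the authors also to a constant sum. No other column of per-sample values was present. Samples were grouped by the treatment in the labels.

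Estimated counts were rounded, since 91.2% to 91.7% were whole as deposited. Genes whose FPKM averaged 1 or more across the 4 libraries were fitted in R 4.3.3 with edgeR 4.0.16, with TMM factors from 0.963 to 1.03 and a common biological coefficient of variation of 0.0468. The quasi-likelihood F-test was two-sided, with Benjamini-Hochberg adjustment over 10243 genes and a threshold of 0.05. P-values measure the spread between libraries of pooled RNA. A count of 0 allows up to 3 counts, and intervals cover counting error only. The scripts were tested on simulated data.

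The members, gene lists and tests were chosen with earlier results of these data known. Named are each member, up to 3 called genes with the largest absolute log2 fold change of each list, the 2 highest genes of each marker list (those of the retina list are not reported here), and the fitted gene nearest to each member. Adipoq, Lep, Cfd, Plin1, Cidec, Slc2a4, Pparg, Cd36, Ptprc, Hba-a1, H2-Aa, Dlk1, Pi16, Zfp423, Ebf2, Col1a1, Col3a1, Ly6f, Ly6g, Ly6i and Fpgs were named after their values or positions were seen. Alternatives were no filter, a minimum of 5 FPKM, RLE size factors, library size only, an offset for gene length, DESeq2 1.42.0, limma 3.58.1 on log2(FPKM + 1), log2(FPKM + 0.1) and log2(TPM + 1), a term for the replicate number, and each library left out. Gene positions and promoter windows came from RefSeq and transcripts from GENCODE, both on GRCm38.p6. Python 3.11.15, pandas 2.3.3, scipy 1.17.1, Biopython 1.88 and matplotlib 3.10.9 were used.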

Additional observations from a re-analysis of the deposited data

How the results depend on the processing

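Over all genes, edgeR's 3287 higher and 3303 lower calls went to 1536 and 5292 with limma on log2(TPM + 1), and of the listed genes 22 in place of 41 were then higher. The higher share of all calls was 49.9% in edgeR, 37.9% with library size only, 37.8% and 37.9% with limma on FPKM at a pseudocount of 1 and 0.1, and 22.5% with TPM. DESeq2 called 2639 and 2653. The members' median log2 fold change of 0.25 was 0.16 with library size only, 0.082 and 0.12 with limma on FPKM at those pseudocounts and −0.0019 with TPM, while the median of all genes went from 0.00 to −0.09, −0.08, −0.09 and −0.22. The members' median ranged from 0.15 to 0.25 with a library left out. At a minimum of 5 FPKM only 4 members were fitted, which gave no such median. The replicate numbers are shared by name only, and a replicate block gave 3292 higher and 3321 lower calls, and a members' median of 0.24. The replicate 1 deviations correlated at −0.105 over genes, so the crossed pairing was tried after seeing the data and gave 3474 and 3519 calls. With 2 libraries of pooled RNA per treatment, low members such as Ly6a, Nt5e and Cd34 are limited by their counts.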
